A study of Mus musculus with 24 samples.

Results

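The chemokine genes were chosen by name: every row of the deposited gene tables whose symbol is Ccl or Cxcl followed by a digit, or Cx3cl1. The rule found 39 genes, in 40 of the 37305 table rows, among 37041 genes in all. Ccl25 had 2 rows at overlapping positions, which were summed. The rule itself used names and no expression value, but the chemokines were chosen with earlier results of these data known. The study measured polyadenylated RNA in C2C12 cells, a mouse myoblast line that can form muscle fibres in culture, and in brown adipose tissue (BAT, the heat-producing fat) of mouse neonates. The C2C12 cells were control cells or cells expressing NFIA (nuclear factor I A, a DNA-binding transcription factor), and each kind was sampled on day 0, on day 7, and on day 7 following 4 h of 10 uM forskolin, which activates adenylyl cyclase and so raises cyclic AMP. The tissue was labelled wild-type or NFIA-KO, and its age was given only as neonate. Each of the 8 groups held 3 libraries, 18 from cells and 6 from tissue. The labels do not say how NFIA was expressed or removed, in which medium the cells were kept, or whether the 3 libraries of a group came from separate cultures or animals, so the p-values measure only the spread between these libraries, which may be technical.

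A high Nfia level was visible in the NFIA cells, and the knockout was not visible in the tissue. Nfia was listed at 1283, 1273 and 1252 FPKM in NFIA cells at day 0, at 3585, 3256 and 3189 FPKM at day 7, and at 9876, 10448 and 9232 FPKM with forskolin, against 0.26 to 2.23 FPKM in the 9 control libraries. FPKM, fragments mapped to a gene scaled to its transcript length and to the library's total, is a level per length. In the tissue, Nfia was at 24.3, 32.8 and 32.6 FPKM in the wild-type libraries and at 44.6, 40.1 and 39.4 FPKM in the libraries labelled NFIA-KO, a log2 difference of 0.47 ± 0.15 (SE) with an adjusted p of 0.097. The gene-level value does not say which exons gave the fragments, so it does not check the deletion, and the tissue groups are named here only by their labels.

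Chemokines are small secreted proteins that bind G protein-coupled receptors and steer the movement of cells along their gradients. The CC, CXC and CX3C classes are named after the spacing of their first cysteines. Inflammatory chemokines are switched on by NF-kB or by interferons and call in monocytes, neutrophils or T cells, whereas homeostatic ones such as Cxcl12 are made steadily by stromal cells and place cells in tissues. In fat, Ccl2 is best known for drawing monocytes into the expanding tissue, and in muscle, Cxcl12 and its receptor Cxcr4 guide muscle precursor cells.

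Promoter sequence from RefSeq (build GRCm38.p6, which differs from the mm9 build of the expression tables) was found for 25 of the 39 genes, and the 250 bases before the start site are printed for 6 of them, 5′ to 3′ on the gene's strand. Cxcl10 is shown because it alone of the interferon-induced CXC genes reached 1 FPKM in the cells. Cxcl1 is shown because it responded to forskolin, and Cxcl2 and Cxcl3 because they lie near Cxcl1 and were hardly detected. Cxcl12 is shown as the most abundant chemokine transcript of NFIA cells at day 0, and Cxcl14 because only NFIA cells with forskolin held a high level of it. Capitals mark 3 kinds of letters on either strand: the kappaB consensus bound by NF-kB, the interferon-stimulated response element (GAAA, any 2 bases, GAAA) and TGACG (the core of the cyclic AMP response element).
Cxcl10, chr5:92348890-92349139, minus strand: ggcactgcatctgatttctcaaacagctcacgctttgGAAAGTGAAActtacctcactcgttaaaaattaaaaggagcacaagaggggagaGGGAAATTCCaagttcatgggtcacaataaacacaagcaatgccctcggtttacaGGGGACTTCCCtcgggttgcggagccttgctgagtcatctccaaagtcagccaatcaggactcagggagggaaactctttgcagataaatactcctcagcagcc
Cxcl1, chr5:90890995-90891244, plus strand: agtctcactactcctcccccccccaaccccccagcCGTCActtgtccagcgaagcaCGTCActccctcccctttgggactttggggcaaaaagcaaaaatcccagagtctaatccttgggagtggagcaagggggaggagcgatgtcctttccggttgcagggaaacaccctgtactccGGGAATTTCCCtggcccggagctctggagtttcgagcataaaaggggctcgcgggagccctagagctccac
Cxcl2, chr5:90903649-90903898, plus strand: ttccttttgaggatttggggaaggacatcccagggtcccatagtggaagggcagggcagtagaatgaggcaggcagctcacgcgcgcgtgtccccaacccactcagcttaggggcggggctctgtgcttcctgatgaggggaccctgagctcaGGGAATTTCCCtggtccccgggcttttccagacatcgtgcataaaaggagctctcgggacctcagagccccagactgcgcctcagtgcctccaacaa
Cxcl3, chr5:90785851-90786100, plus strand: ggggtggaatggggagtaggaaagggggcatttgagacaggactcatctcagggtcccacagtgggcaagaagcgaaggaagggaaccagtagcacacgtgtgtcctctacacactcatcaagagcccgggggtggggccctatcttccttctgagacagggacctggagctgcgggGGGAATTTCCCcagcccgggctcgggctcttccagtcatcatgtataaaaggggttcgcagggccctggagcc
Cxcl12, chr6:117168285-117168534, plus strand: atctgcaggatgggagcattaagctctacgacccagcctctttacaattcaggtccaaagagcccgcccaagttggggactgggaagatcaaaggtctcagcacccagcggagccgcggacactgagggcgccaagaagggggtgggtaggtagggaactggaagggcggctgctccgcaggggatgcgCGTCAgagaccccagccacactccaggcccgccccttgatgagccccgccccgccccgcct
Cxcl14, chr13:56296552-56296801, minus strand: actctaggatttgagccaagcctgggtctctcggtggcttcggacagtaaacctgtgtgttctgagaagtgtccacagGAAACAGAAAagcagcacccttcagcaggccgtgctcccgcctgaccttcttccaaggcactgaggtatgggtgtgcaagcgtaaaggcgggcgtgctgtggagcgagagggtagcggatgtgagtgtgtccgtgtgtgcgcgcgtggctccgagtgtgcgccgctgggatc
The windows of Cxcl1, Cxcl2 and Cxcl3 held the same kappaB letters GGGAATTTCC, beginning at -71, -97 and -73 from the start site, each overlapped by a second match shifted by 1 base. In the Cxcl10 window GAAAGTGAAA began at -213, followed by kappaB matches beginning at -159 and -104. Among the Cxcl1, Cxcl2 and Cxcl3 windows, that of Cxcl1 alone held TGACG, read on the opposite strand and beginning at -215 and -194. The Cxcl12 window held it at -61, and the Cxcl14 window held GAAACAGAAA at -172. Over windows that also take in 50 bases after the start, kappaB letters were present in 8 of the 25 chemokine genes and in 8.46% of all 32851 windows. The 25 genes have 31 windows, and a gene was counted if any of its windows matched. No window was found for Ccl2, Ccl5, Ccl7, Ccl11, Cxcl5 and Cxcl16, all tested in the cells below, so the counts leave them out. The share over all is per window, so these counts and shares are not like measures. The interferon element was present in 3 of the 25 (Ccl19, Cxcl10 and Cxcl14) and in 3.44% of all windows, and TGACG in 5 of the 25 and in 20.8% of all windows. The full cyclic AMP response element TGACGTCA (1.79% of all windows) and the full nuclear factor I site (TTGGC, any 5 bases, GCCAA; 0.0365%) matched none of the 25. A full nuclear factor I site is so rare that its absence from 25 genes says nothing. Its shorter letters TTGGC were present in 12 of the 25 and in 46.7% of all windows. A match describes letters and shows neither binding nor its absence.

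Of the 39 genes, 20 reached 1 FPKM in at least 1 library. Those 20 also reached a mean of 1 FPKM in at least 1 group: 7 in both cells and tissue, 8 in cells alone and 5 in tissue alone. The other 19 stayed under 1 FPKM in every library: Ccl1, Ccl3, Ccl4, Ccl17, Ccl19, Ccl20, Ccl21a, Ccl21b, Ccl21c, Ccl22, Ccl24, Ccl26, Cxcl2, Cxcl3, Cxcl11, Cxcl15, Cxcl17 and the pseudogene entries Ccl19-ps1 and Ccl19-ps3. Ccl20 and Cxcl11 were listed at 0 in all 24 libraries. Several entries are near-identical copies (Ccl21a, Ccl21b and Ccl21c; Ccl27a and Ccl27b; Ccl19 and its pseudogenes), and 13 members share an overlapping table locus with another gene, so how their fragments were split is uncertain. By position, 12 of the 39 lie on chromosome 11, 11 on chromosome 5, 8 on chromosome 4 and 4 on chromosome 8.

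**Figure D1:**
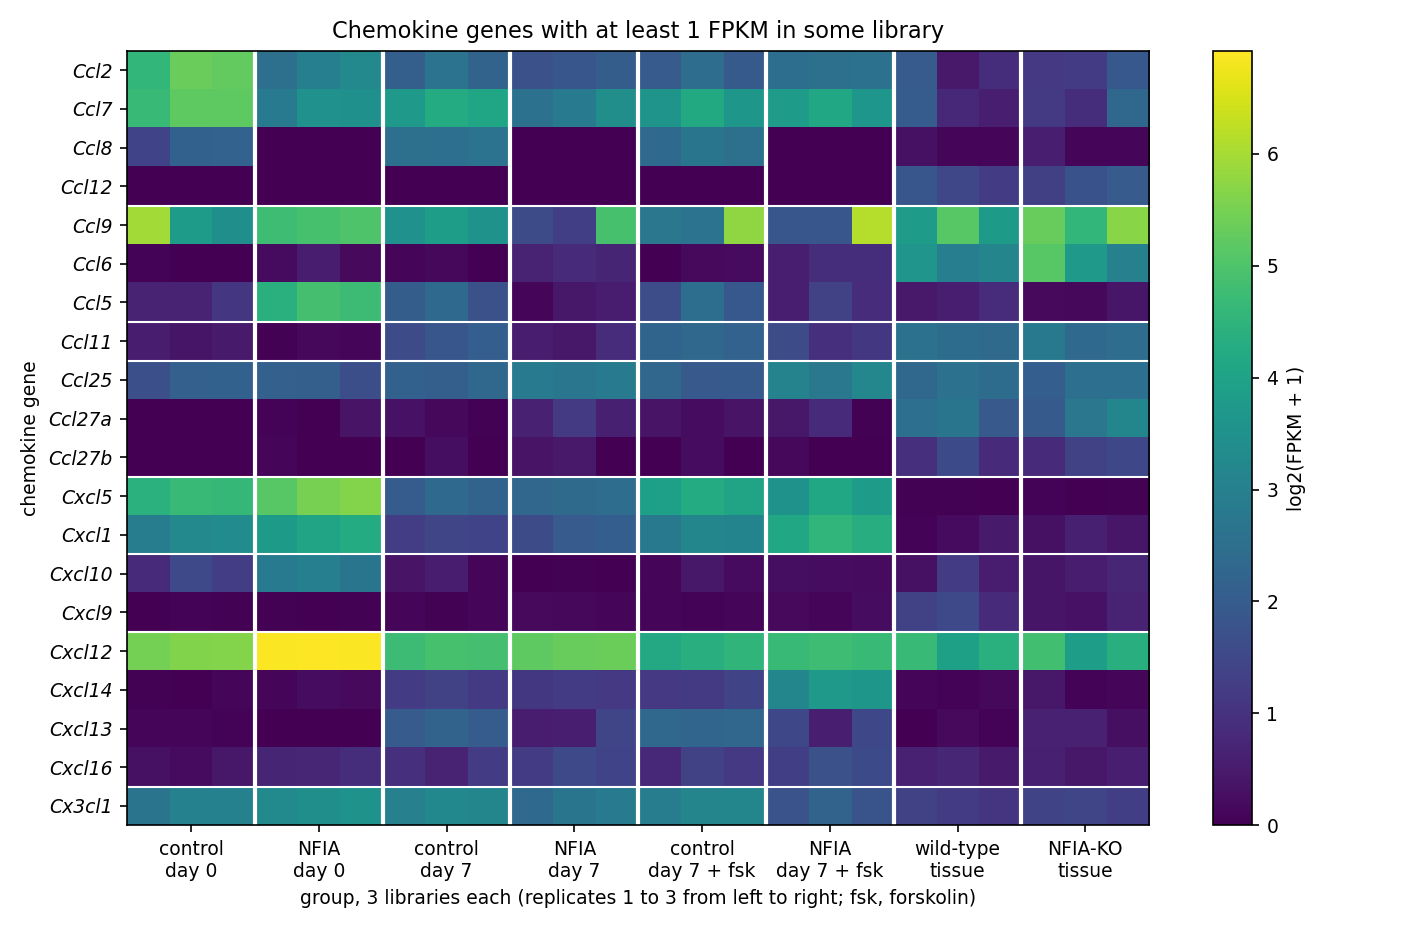
Heatmap of log2(FPKM + 1) for the 20 chemokine genes with at least 1 FPKM in some library (rows, grouped by role) in the 24 libraries (columns, 3 per group; fsk is forskolin). Cxcl12 is brightest in NFIA day 0 cells, Ccl8 is dark in all 9 NFIA libraries, and Cxcl5 and Cxcl1 are dark in the tissue.

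The summed level of all chemokine genes was highest at day 0 and was carried by few genes. It ran from 183 to 191 FPKM in control and from 240 to 281 FPKM in NFIA cells at day 0, and from 82.6 to 102 and from 67.0 to 110 FPKM at day 7. Cxcl12 made up 25% of the control and 44.3% of the NFIA summed mean at day 0. With forskolin the sums were 83.3 to 144 FPKM in control and 98.0 to 172 FPKM in NFIA cells. In the tissue the sums were 61.0 to 82.6 FPKM in wild-type and 74.5 to 123 FPKM in NFIA-KO libraries, where Ccl9 made up 27.0% and 36.0% of the summed mean and Cxcl12 26.4% and 19.5%. The tables used here give no read totals, so depth is unknown and no counting interval can be given.

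In the order of levels, neighbours often differed by less than their spread. In control cells at day 0, Cxcl12 (46.7 ± 3.06 FPKM, mean ± SD, n = 3) had the highest mean, above Ccl2 (33.2 ± 8.97), Ccl7 (32.4 ± 6.45), Ccl9 (28.2 ± 29.1) and Cxcl5 (22.9 ± 2.28). Its 3 libraries lay above all those of Ccl2, Ccl7 and Cxcl5, but 1 Ccl9 library was higher, and the last 4 genes overlapped each other. NFIA cells at day 0 had the order Cxcl12 (118 ± 1.96), Cxcl5 (42.4 ± 7.67), Ccl9 (28.9 ± 2.43) and Ccl5 (24.7 ± 4.43), of which Ccl9 and Ccl5 overlapped.

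NFIA cells differed from control cells in chemokine genes of several roles, in both directions. The test was limma on log2(FPKM + 1), a scale that understates the change of low genes, with Benjamini-Hochberg adjustment over all genes that had 1 FPKM or more in at least 3 of the 18 cell libraries. The threshold was an adjusted p of 0.05, and 15 chemokine genes passed the expression filter. At day 0, 9 of the 15 were called, beside 21.2% of all 14351 genes tested. Ccl5, Cxcl10, Cxcl12, Cxcl1, Cxcl5 and Cx3cl1 were higher in NFIA cells (6 of 15, beside 12.1% of all genes), and Ccl2, Ccl7 and Ccl8 were lower (3 of 15, beside 9.07%). At day 7, 10 of the 15 were called, a share near the 55.5% of all genes. Ccl25, Cxcl1, Cxcl12 and Cxcl16 were higher (4 of 15, beside 26.1%), and Ccl8, Ccl5, Ccl11, Cxcl13, Ccl7 and Cx3cl1 were lower (6 of 15, beside 29.4%). With forskolin, 10 of the 15 were called, again near the 61.6% of all genes. Cxcl14, Cxcl1, Ccl25, Cxcl16 and Cxcl12 were higher (5 of 15, beside 28.7%), and Ccl8, Cx3cl1, Cxcl13, Ccl5 and Ccl11 were lower (5 of 15, beside 32.9%). The median log2 difference of the 15 was 0.46 at day 0, -0.43 at day 7 and -0.02 with forskolin, against 0.02, -0.03 and -0.04 over all genes tested. A gene that passed the filter only through the group where it was high, such as Ccl8, Cxcl10 or Ccl11, had to differ. These counts and medians therefore describe the 15 and support nothing.

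**Figure D2:**
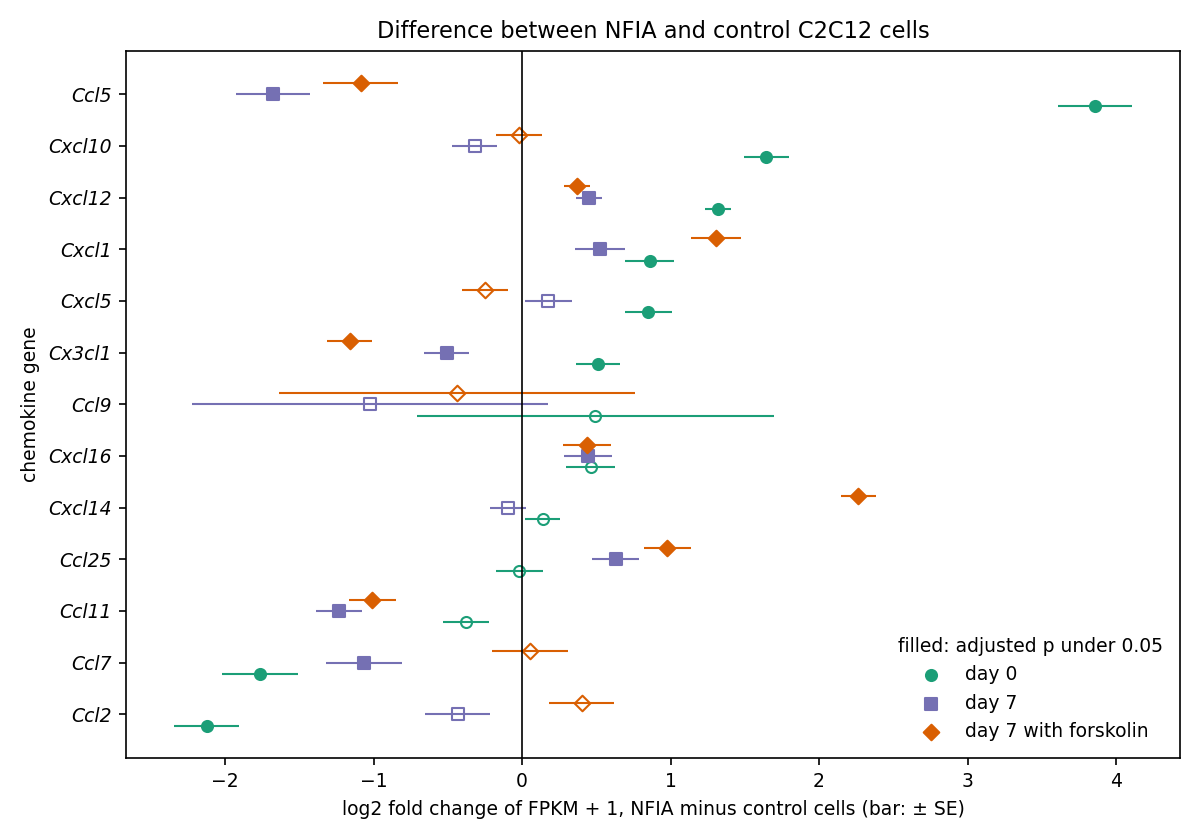
Log2 difference of FPKM + 1 between NFIA and control C2C12 cells (x axis, NFIA minus control; bars are ± SE of the limma fit) for chemokine genes (y axis) at day 0, day 7 and day 7 with forskolin, with filled symbols for an adjusted p under 0.05. Ccl5 lies at 3.86 at day 0 and at -1.68 at day 7; Ccl8, listed at 0 in all NFIA libraries, is left out.

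From day 0 to day 7, control and NFIA cells each had 12 of the 15 chemokine genes called, beside 48.9% and 56.9% of all genes tested. In control cells Cxcl13, Ccl11, Ccl5, Cxcl14, Ccl8 and Cxcl16 rose (6 of 15, beside 24.9%) and Ccl2, Cxcl5, Cxcl1, Ccl7, Cxcl10 and Cxcl12 fell (6 of 15, beside 23.9%). In NFIA cells Cxcl14, Cxcl13, Ccl25, Cxcl16 and Ccl11 rose (5 of 15, beside 27.5%) and Ccl5, Cxcl5, Cxcl10, Cxcl1, Cxcl12, Ccl2 and Cx3cl1 fell (7 of 15, beside 29.4%). The median log2 change of the 15 was 0.20 in control and -0.80 in NFIA cells, against 0.02 and -0.01 over all genes tested. The change over time differed between NFIA and control cells for 10 of the 15 (interaction term), beside 45.3% of all genes: 2 differences were above 0 (beside 19.8%) and 8 below (beside 25.5%). These comparisons share their day 0 and day 7 libraries with those between NFIA and control cells. As above, Ccl8, Cxcl10 and Ccl11 passed the filter only through groups where they were high, and Ccl8 was listed at 0 in all NFIA libraries. The counts and medians of the change with time therefore describe the 15 and support nothing.

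Forskolin for 4 h changed 3 of the 15 chemokine genes in control cells, beside 3.97% of all genes tested, and 8 of the 15 in NFIA cells, beside 32.6%. In control cells Cxcl1 and Cxcl5 rose (2 of 15, beside 1.92%) and Cxcl12 fell (1 of 15, beside 2.06%). In NFIA cells Cxcl1, Cxcl14, Cxcl5, Ccl7, Ccl2 and Ccl11 rose (6 of 15, beside 15.7%) and Cx3cl1 and Cxcl12 fell (2 of 15, beside 16.9%). The median log2 change was -0.02 in control and 0.57 in NFIA cells, against -0.01 and -0.02 over all genes tested. The response differed between NFIA and control cells for 4 of the 15, a share near the 20.1% of all genes: Cxcl14, Ccl7 and Cxcl1 above 0 (beside 10.5%) and Cx3cl1 below (beside 9.61%). That count was 1, Cxcl14, with control day 7 library 2 or 3 left out, and 2 with any 1 of NFIA day 7 libraries 1 and 2, control forskolin libraries 1 and 3, or NFIA forskolin libraries 1 and 2 left out. These comparisons share the day 7 libraries with those above.

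In each cell group 1 library has no number in its title and is called library 1 here, and the other 2 are numbered 2 and 3 by their titles. The 6 unnumbered cell libraries and all tissue libraries carry an earlier date in their column headers than the numbered ones. Among the later libraries alone, all 78 chemokine calls of the 9 comparisons in cells kept their direction and 75 kept their call. The 3 that did not were Cxcl16 between NFIA and control cells with forskolin (log2 0.39, adjusted p 0.081), Ccl11 with forskolin in NFIA cells (0.37, adjusted p 0.07) and the interaction of NFIA and day for Cxcl13 (-1.01, adjusted p 0.088). The later libraries are part of those that gave the 78 calls, so this agreement is not an independent check. The 78 also include calls of Ccl8, Cxcl10 and Ccl11 that had to differ, as stated above. The earlier date holds 1 library per cell group, which gives no spread of its own, so for it only the library values can be read. Library values are given in the order 1, 2, 3.

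The monocyte-attracting CC genes Ccl2, Ccl7 and Ccl8, of the same chromosome 11 cluster as Ccl11 and Ccl12, were lower in NFIA cells at day 0. Ccl2 (chr11:81841726-81852064, mm9), whose product is the main ligand of the receptor Ccr2, was at 22.9, 39.4 and 37.2 FPKM in control cells at day 0 and at 4.90, 6.99 and 8.48 FPKM in NFIA cells. Every NFIA library lay below every control library, a log2 difference of -2.12 ± 0.22 (SE, adjusted p = 3.4e-06). By day 7 Ccl2 had fallen to 3.26, 5.22 and 3.61 FPKM in control cells and to 2.31, 2.62 and 3.15 FPKM in NFIA cells. The log2 change was -2.75 ± 0.22 in control cells (adjusted p = 8.1e-08) and -1.06 ± 0.22 in NFIA cells (adjusted p = 0.00076), and these changes differed by 1.69 ± 0.31 (interaction, adjusted p = 0.00037). The difference between the cell types at day 7 was -0.43 ± 0.22 (adjusted p = 0.11) although the libraries did not overlap. With forskolin Ccl2 was at 2.94, 4.58 and 2.92 FPKM in control cells and at 4.70, 4.87 and 4.94 FPKM in NFIA cells. It rose by 0.67 ± 0.22 in NFIA cells (adjusted p = 0.03), a call that was lost when any 1 of NFIA day 7 library 1 (0.59, adjusted p 0.092), NFIA day 7 library 2 (0.66, adjusted p 0.076) or any of the 3 NFIA forskolin libraries (0.65 to 0.68, adjusted p 0.058 to 0.072) was left out.

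Ccl7 (chr11:81859214-81861027), a ligand of the same receptor and of others, followed Ccl2 at day 0 but stayed higher at day 7. It was at 24.9, 36.0 and 36.2 FPKM in control and 6.11, 10.4 and 10.2 FPKM in NFIA cells at day 0, groups that did not overlap (log2 -1.76 ± 0.25, adjusted p = 0.0001). The day 7 values, 12.4, 18.04 and 15.9 FPKM in control and 4.96, 6.40 and 9.68 FPKM in NFIA cells, again did not overlap (-1.06 ± 0.25, adjusted p = 0.0023). The fall with time was called in control cells (-1.02 ± 0.25, adjusted p = 0.0041) and not in NFIA cells (-0.32 ± 0.25, adjusted p = 0.32), and the interaction was 0.70 ± 0.36 (adjusted p = 0.13). Forskolin left the control libraries at 10.9, 17.3 and 11.6 FPKM (-0.22 ± 0.25, adjusted p = 0.93) and took the NFIA libraries to 12.8, 16.8 and 11.5 FPKM (0.90 ± 0.25, adjusted p = 0.013). With forskolin the groups overlapped, at 0.06 ± 0.25 (adjusted p = 0.87), and the responses differed by 1.12 ± 0.36 (interaction, adjusted p = 0.04). The NFIA response lost its call without NFIA day 7 library 1 (0.71, adjusted p 0.063) or NFIA forskolin library 2 (0.75, adjusted p 0.062), and the interaction lost it without any 1 of control day 7 libraries 2 and 3, NFIA day 7 libraries 1 and 2, control forskolin libraries 1 and 3, or NFIA forskolin libraries 1 and 2 (0.93 to 1.16, adjusted p 0.056 to 0.098).

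Ccl8 (chr11:81928687-81930301), another monocyte attractant, was present in every control library and listed at 0 in every NFIA library. Control cells held 1.62, 3.40 and 3.49 FPKM at day 0, 4.93, 4.81 and 5.25 FPKM at day 7, and 4.15, 5.40 and 4.85 FPKM with forskolin. No fold change can be given against a group listed at 0, and since the gene passed the filter only through the control libraries, its calls against NFIA cells add nothing to these values. In control cells Ccl8 rose by 0.69 ± 0.15 from day 0 to day 7 (adjusted p = 0.0017), and by 0.43 (adjusted p = 0.00062) without control day 0 library 1, the lowest. Ccl12, the fourth gene of this group, was listed at 0 in all 18 cell libraries.

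Among the other inflammatory CC genes, Ccl5 changed direction between days. Ccl5 (chr11:83339280-83344020), also called RANTES, attracts T cells and monocytes. At day 0 it was at 0.62, 0.57 and 1.13 FPKM in control cells and at 19.9, 28.5 and 25.8 FPKM in NFIA cells. All NFIA libraries were far above all control libraries (log2 3.86 ± 0.25, adjusted p = 2e-08), the largest fitted difference among the 15 at day 0. At day 7 the order was turned: 3.11, 4.18 and 2.27 FPKM in control cells and 0.06, 0.37 and 0.46 FPKM in NFIA cells, again with no overlap (-1.68 ± 0.25, adjusted p = 3.5e-05). Ccl5 thus rose by 1.23 ± 0.25 in control cells (adjusted p = 0.00086) and fell by 4.31 ± 0.25 in NFIA cells (adjusted p = 1e-09), and the interaction was -5.54 ± 0.35 (adjusted p = 6e-09). With forskolin it was at 2.09, 4.67 and 2.78 FPKM in control and 0.49, 1.52 and 0.84 FPKM in NFIA cells (-1.09 ± 0.25, adjusted p = 0.0015). Ccl4, an inflammatory chemokine gene of the same chromosome 11 cluster, was at 0.35, 0.50 and 0.82 FPKM in NFIA cells at day 0, was at most 0.10 FPKM in the other cell libraries, and did not pass the filter.

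Ccl9 (chr11:83386421-83392138), a mouse ligand of Ccr1, was abundant but split within groups. In control cells it was at 61.8, 12.8 and 9.96 FPKM at day 0, 10.2, 13.4 and 10.5 FPKM at day 7, and 5.64, 5.25 and 54.0 FPKM with forskolin. In NFIA cells it was at 26.3, 29.2 and 31.2 FPKM at day 0, 1.98, 1.45 and 29.0 FPKM at day 7, and 2.61, 2.59 and 69.7 FPKM with forskolin. In 4 of the 6 cell groups (control day 0, NFIA day 7 and both forskolin groups) 1 library thus stood apart from the other 2, and the SE of each difference between NFIA and control cells was 1.20 on the log2 scale. None of its comparisons was called: the difference between NFIA and control cells was 0.49 at day 0 (adjusted p = 0.84), -1.03 at day 7 (adjusted p = 0.5) and -0.44 with forskolin (adjusted p = 0.78). Ccl9 was the single gene of the 15 with no call in any of the 7 comparisons within the cells. Ccl6, a related ligand of Ccr1, stayed under 1 FPKM in all cell libraries.

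The eosinophil attractant Ccl11 (eotaxin, chr11:81871325-81876457) rose with time and was lower in NFIA cells at day 7. It was at 0.43, 0.32 and 0.41 FPKM in control and 0.03, 0.10 and 0.07 FPKM in NFIA cells at day 0. By day 7 it stood at 2.07, 2.64 and 3.20 FPKM in control and 0.45, 0.36 and 0.84 FPKM in NFIA cells, without overlap (log2 -1.23 ± 0.16, adjusted p = 7e-06). With forskolin the levels were 3.69, 3.96 and 3.52 FPKM in control and 2.07, 0.93 and 1.18 FPKM in NFIA cells, again apart (-1.01 ± 0.16, adjusted p = 4.6e-05). Without the control libraries Ccl11 would not have passed the filter, so its calls against NFIA cells add nothing to these values. The rise with time was 1.38 ± 0.16 in control cells (adjusted p = 3.7e-06) and 0.53 ± 0.16 in NFIA cells (adjusted p = 0.0097), with an interaction of -0.85 ± 0.22 (adjusted p = 0.0054). That interaction is also a comparison with NFIA cells, and it depends on the scale. With a pseudocount of 0.1 it was -0.56 (adjusted p 0.31), so no smaller rise in NFIA cells is read from it. The rise in NFIA cells lost its call under quantile normalization (0.32, adjusted p 0.11) and without NFIA day 7 library 3 (0.40, adjusted p 0.056). Forskolin raised it by 0.61 ± 0.16 in NFIA cells (adjusted p = 0.0076). The other members of this group, Ccl24 and Ccl26, stayed under 1 FPKM in every library.

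The neutrophil attractants Cxcl1 and Cxcl5, both ligands of Cxcr2, fell with time and rose with forskolin in both cell types. Cxcl5 (chr5:91188325-91190651) was at 20.4, 24.9 and 23.3 FPKM in control and 34.0, 44.2 and 49.0 FPKM in NFIA cells at day 0, without overlap (log2 0.85 ± 0.16, adjusted p = 0.00094). By day 7 it was down to 3.07, 4.18 and 3.64 FPKM in control and 3.88, 4.22 and 4.54 FPKM in NFIA cells, which overlapped (0.18 ± 0.16, adjusted p = 0.37). The log2 change with time was -2.37 ± 0.16 in control cells (adjusted p = 1e-08) and -3.04 ± 0.16 in NFIA cells (adjusted p = 2.7e-10), and these differed by -0.67 ± 0.22 (interaction, adjusted p = 0.022). The interaction lost its call without any 1 of control day 0 library 1, NFIA day 0 libraries 2 and 3, control day 7 library 2 or NFIA day 7 library 1 (-0.56 to -0.64, adjusted p 0.05 to 0.063). After forskolin Cxcl5 was at 13.9, 18.1 and 15.5 FPKM in control and 10.7, 16.4 and 12.8 FPKM in NFIA cells. The rise was 1.86 ± 0.16 in control cells (adjusted p = 5.2e-06) and 1.44 ± 0.16 in NFIA cells (adjusted p = 5.6e-06), and the difference between these responses was not called (-0.43 ± 0.22, adjusted p = 0.22).

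Cxcl1 (KC, chr5:91320267-91322141) was higher in NFIA cells in all 3 conditions. At day 0 it was at 6.51, 8.55 and 9.04 FPKM in control and 12.7, 15.4 and 18.2 FPKM in NFIA cells (log2 0.86 ± 0.17, adjusted p = 0.0015). At day 7 both were low, 1.38, 1.70 and 1.61 FPKM against 1.99, 2.94 and 3.23 FPKM (0.52 ± 0.17, adjusted p = 0.015). With forskolin control cells reached 5.90, 8.05 and 7.69 FPKM and NFIA cells 16.7, 22.5 and 18.9 FPKM (1.31 ± 0.17, adjusted p = 6.4e-06). In none of the 3 conditions did the groups overlap. The rise with forskolin was 1.67 ± 0.17 in control cells (adjusted p = 3.3e-05) and 2.46 ± 0.17 in NFIA cells (adjusted p = 3.6e-08), and the responses differed by 0.78 ± 0.24 (interaction, adjusted p = 0.03). The day 7 difference lost its call without control day 7 library 1 (0.47, adjusted p 0.054), NFIA day 7 library 2 (0.47, adjusted p 0.054) or NFIA day 7 library 3 (0.42, adjusted p 0.072). The interaction lost it without any 1 of control day 7 libraries 2 and 3, NFIA day 7 library 1, control forskolin library 1 or NFIA forskolin library 2 (0.63 to 0.77, adjusted p 0.058 to 0.076), and under quantile normalization (0.58, adjusted p 0.059) or a pseudocount of 0.1 (0.67, adjusted p 0.11). Cxcl2 was listed at 0 in all cell libraries and Cxcl3 was at most 0.17 FPKM. The part of promoter letters in the levels of these genes was not tested.

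**Figure D3:**
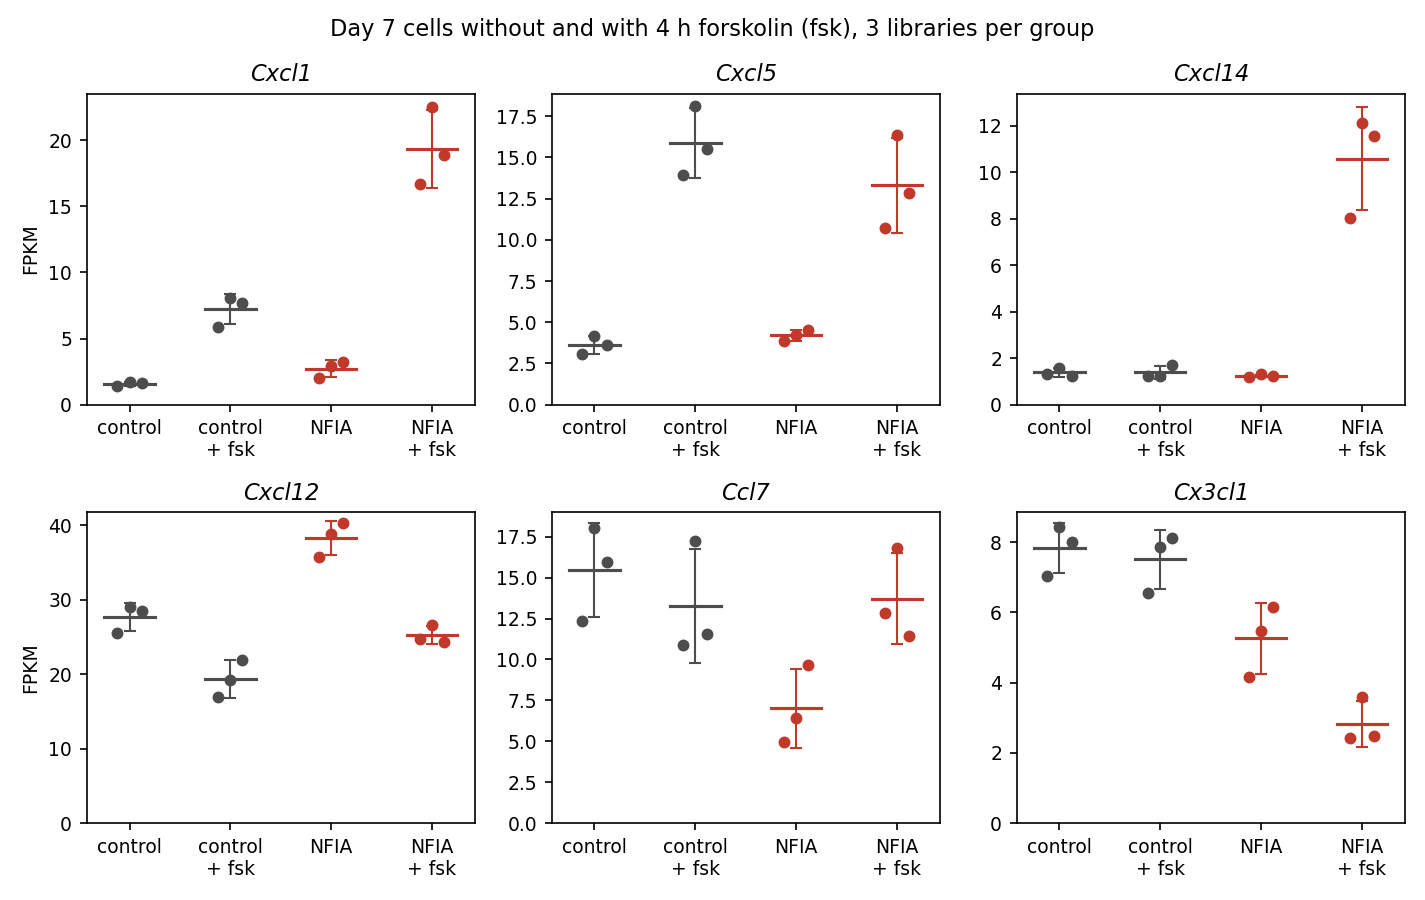
FPKM (y axes, linear) of 6 chemokine genes in day 7 C2C12 cells without and with 4 h of forskolin; points are libraries, horizontal lines means and bars SD of 3 libraries. Cxcl14 lies above 8 FPKM in NFIA cells with forskolin and under 2 FPKM in the 3 other groups, while Cxcl1 and Cxcl5 rise in both cell types.

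Of the interferon-induced CXC genes, whose products draw activated T cells through Cxcr3, Cxcl10 alone reached 1 FPKM in the cells. Cxcl10 was at 0.77, 1.89 and 1.37 FPKM in control and 6.21, 6.93 and 5.50 FPKM in NFIA cells at day 0, well apart (log2 1.65 ± 0.15, adjusted p = 1.2e-06). By day 7 it was at 0.29, 0.45 and 0.06 FPKM in control cells and was listed at 0, 0.02 and 0 FPKM in NFIA cells. It fell by 0.87 ± 0.15 in control cells (adjusted p = 0.00027) and by 2.84 ± 0.15 in NFIA cells (adjusted p = 5e-10), with an interaction of -1.97 ± 0.22 (adjusted p = 2.8e-06). Cxcl10 passed the filter only through the NFIA day 0 libraries, where it was high. Its calls that involve that group therefore add nothing to the values. With forskolin it stayed at 0.08 to 0.35 FPKM in control and 0.15 to 0.19 FPKM in NFIA cells. The table locus of Cxcl10 (chr5:92760853-92843654) overlaps those of Cxcl11 and Art3, so how fragments were split there is uncertain. Cxcl9 was at most 0.18 FPKM in the cells.

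Cxcl12 (stromal cell-derived factor, chr6:117118553-117131385), the homeostatic ligand of Cxcr4, was the most abundant chemokine transcript of NFIA cells at day 0. It was at 43.2, 48.0 and 48.9 FPKM in control and 116, 120 and 118 FPKM in NFIA cells at day 0, a tight and fully separate pair of groups (log2 1.32 ± 0.09, adjusted p = 2.6e-08). Day 7 levels were 25.6, 29.0 and 28.5 FPKM in control and 35.7, 38.8 and 40.2 FPKM in NFIA cells, still apart (0.45 ± 0.09, adjusted p = 0.00042). With forskolin it was at 16.9, 19.2 and 21.9 FPKM in control and 24.8, 26.6 and 24.3 FPKM in NFIA cells (0.37 ± 0.09, adjusted p = 0.0018). The change with time was -0.73 ± 0.09 in control cells (adjusted p = 6.3e-06) and -1.60 ± 0.09 in NFIA cells (adjusted p = 5.3e-10), with an interaction of -0.87 ± 0.12 (adjusted p = 3.6e-05). With forskolin it changed by -0.50 ± 0.09 in control (adjusted p = 0.0031) and by -0.58 ± 0.09 in NFIA cells (adjusted p = 0.00012), and these responses differed by -0.08 ± 0.12 (adjusted p = 0.74). The control response lost its call when the fit held only the groups compared (adjusted p 0.1).

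Both receptors of Cxcl12 were lower in NFIA cells at day 0, and at day 7 Cxcr4 was lower and Cxcr7 higher. Of 24 chemokine receptor genes in the tables, 4 passed the filter in the cells. Cxcr4, which signals through G proteins, was at 23.0, 26.4 and 26.7 FPKM in control and 7.12, 7.22 and 9.04 FPKM in NFIA cells at day 0 (log2 -1.59 ± 0.14, adjusted p = 4.2e-07), and at 36.1, 37.05 and 37.1 against 9.15, 10.9 and 14.1 FPKM at day 7 (-1.63 ± 0.14, adjusted p = 6e-08). Forskolin raised Cxcr4 to 48.2, 59.6 and 58.1 FPKM in control cells (0.57 ± 0.14, adjusted p = 0.027) and lowered it to 7.13, 7.23 and 8.73 FPKM in NFIA cells (-0.49 ± 0.14, adjusted p = 0.011; interaction -1.06 ± 0.19, adjusted p = 0.001). Cxcr7 (also Ackr3), an atypical receptor that takes up Cxcl12, was lower in NFIA cells at day 0, at 1.32, 1.37 and 1.71 FPKM against 5.70, 7.27 and 8.18 FPKM (-1.70 ± 0.17, adjusted p = 2.7e-06). At day 7 it was higher in NFIA cells, at 8.85, 11.95 and 13.5 FPKM against 5.16, 5.94 and 6.16 FPKM (0.86 ± 0.17, adjusted p = 0.00052). In these comparisons the groups of libraries were apart. With forskolin Cxcr7 rose to 8.56, 11.4 and 11.01 FPKM in control (0.74 ± 0.17, adjusted p = 0.024) and to 17.4, 25.6 and 25.04 FPKM in NFIA cells (0.93 ± 0.17, adjusted p = 0.00071). Cxcr6, the receptor of Cxcl16, was above 1 FPKM in control cells at day 0 alone (1.45, 1.06 and 1.22 FPKM), and Ccrl2, an atypical receptor, in NFIA cells with forskolin alone (1.33, 1.19 and 1.29 FPKM). Ccr1, Ccr2, Cxcr2 and Cxcr3, receptors of inflammatory members, were at most 0.11 FPKM in the cells.

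**Figure D4:**
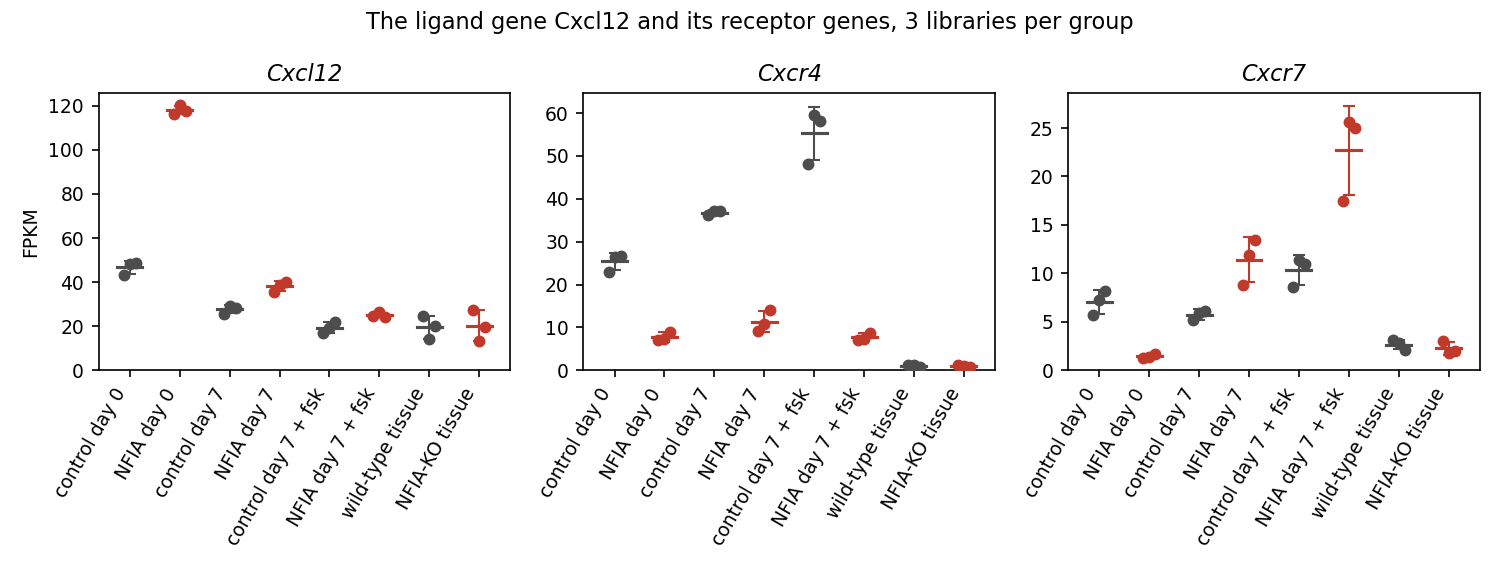
FPKM (y axes, linear) of the ligand gene Cxcl12 and the receptor genes Cxcr4 and Cxcr7 in the 8 groups; points are libraries, lines means and bars SD of 3 libraries, with NFIA cells and NFIA-KO tissue in red. Cxcr4 lies under 15 FPKM in every NFIA library and above 20 FPKM in every control cell library, while Cxcl12 is higher in NFIA cells.

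Cxcl14 (chr13:56390008-56397912), a CXC chemokine of epithelia and fat whose receptor is debated, responded to forskolin in NFIA cells. At day 0 it was at 0 to 0.17 FPKM in all 6 libraries. Day 7 values were 1.33, 1.59 and 1.24 FPKM in control and 1.18, 1.30 and 1.22 FPKM in NFIA cells, which overlapped (log2 -0.09 ± 0.12, adjusted p = 0.54). With forskolin it was at 1.22, 1.25 and 1.69 FPKM in control cells (adjusted p of the change = 1) and at 8.04, 12.1 and 11.6 FPKM in NFIA cells (change 2.36 ± 0.12, adjusted p = 1.5e-09). The forskolin groups did not overlap (2.27 ± 0.12, adjusted p = 3.1e-10), and the responses differed by 2.36 ± 0.17 (interaction, adjusted p = 1.7e-07). The interaction was called under each of the 22 alternatives run for it.

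Cxcl13 (chr5:96385945-96390086), the B cell attractant of lymphoid tissue, appeared with time and less so in NFIA cells. Day 0 levels were at most 0.09 FPKM in control libraries and 0 in all NFIA libraries. By day 7 it had reached 2.94, 3.60 and 3.06 FPKM in control and 0.47, 0.49 and 1.74 FPKM in NFIA cells, and with forskolin at 4.03, 3.82 and 3.90 against 1.81, 0.50 and 1.81 FPKM. The groups were apart in both conditions (log2 -1.21 ± 0.23, adjusted p = 0.00041, and -1.11 ± 0.23, adjusted p = 0.00072). The rise in control cells was 1.98 ± 0.23 (adjusted p = 5.4e-06); that in NFIA cells, from libraries listed at 0, had an adjusted p of 0.0054, and of 0.029 without NFIA day 7 library 3, the highest. Cxcl16, a membrane-bound CXC chemokine, was low throughout: 0.25, 0.15 and 0.35 FPKM in control and 0.63, 0.67 and 0.86 FPKM in NFIA cells at day 0 (0.46 ± 0.16, adjusted p = 0.06), and 0.95, 0.57 and 1.32 against 1.36, 1.88 and 1.63 FPKM at day 7 (0.44 ± 0.16, adjusted p = 0.032). The day 7 difference lost its call without control day 7 library 1 (0.45, adjusted p 0.06) or 2 (0.30, adjusted p 0.16) or NFIA day 7 library 2 (0.37, adjusted p 0.11) or 3 (0.44, adjusted p 0.07). With forskolin the groups overlapped (0.44 ± 0.16, adjusted p = 0.031), and the call was lost without control forskolin library 1 (0.28, adjusted p 0.16) or NFIA forskolin library 2 (0.33, adjusted p 0.13) or 3 (0.42, adjusted p 0.071). Its rise with time in control cells, 0.62 ± 0.16 (adjusted p = 0.0056), was 0.15 (adjusted p 0.46) under quantile normalization, which moved the median of all genes in that comparison from 0.02 to -0.11.

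Of the lymphoid and epithelial CC genes, Ccl25 alone passed the filter in the cells. Ccl25 (chr8:4325210-4360020), the thymic and gut ligand of Ccr9, overlapped at day 0, at 2.21, 3.32 and 3.45 FPKM in control and 3.38, 3.28 and 2.16 FPKM in NFIA cells (log2 -0.02 ± 0.16, adjusted p = 0.96). Day 7 levels were 3.40, 3.30 and 3.98 FPKM in control and 6.32, 5.6 and 6.23 FPKM in NFIA cells (0.63 ± 0.16, adjusted p = 0.0033), and forskolin levels 3.84, 2.82 and 2.86 against 7.58, 5.86 and 8.26 FPKM (0.98 ± 0.16, adjusted p = 7e-05). Both later conditions showed no overlap. The rise with time was called in NFIA cells (0.85 ± 0.16, adjusted p = 0.00029) and not in control cells (0.20 ± 0.16, adjusted p = 0.31), with an interaction of 0.65 ± 0.22 (adjusted p = 0.028). That interaction lost its call without any 1 of control day 0 libraries 2 and 3, NFIA day 0 library 3, control day 7 libraries 1 and 2, or NFIA day 7 libraries 1 and 3 (0.50 to 0.63, adjusted p 0.054 to 0.078).

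Cx3cl1 (fractalkine, chr8:97295909-97306323), the membrane-bound ligand of Cx3cr1, turned from higher to lower in NFIA cells. At day 0 it was at 5.32, 7.29 and 7.27 FPKM in control and 8.82, 9.91 and 10.7 FPKM in NFIA cells (log2 0.51 ± 0.15, adjusted p = 0.024). At day 7 it was at 7.05, 8.43 and 8.02 against 4.15, 5.47 and 6.16 FPKM (-0.51 ± 0.15, adjusted p = 0.0097), and with forskolin at 6.56, 7.86 and 8.11 against 2.42, 3.59 and 2.48 FPKM (-1.16 ± 0.15, adjusted p = 7.2e-06). The groups were apart each time, and the change with time differed by -1.02 ± 0.21 (interaction, adjusted p = 0.0011). In NFIA cells it fell by 0.80 ± 0.15 with time (adjusted p = 0.00032) and by 0.71 ± 0.15 with forskolin (adjusted p = 0.002), against changes of 0.22 ± 0.15 (adjusted p = 0.25) and -0.06 ± 0.15 (adjusted p = 1) in control cells. The day 0 difference lost its call without control day 0 library 1 (0.38, adjusted p 0.11), NFIA day 0 library 2 (0.50, adjusted p 0.069) or NFIA day 0 library 3 (0.45, adjusted p 0.095) and with only the groups compared in the fit (adjusted p 0.062), and the day 7 difference without NFIA day 7 library 1 (-0.37, adjusted p 0.055). The forskolin responses differed by -0.65 ± 0.21 (interaction, adjusted p = 0.043), a call that was lost without any 1 of the 3 control day 7 libraries, NFIA day 7 libraries 2 and 3, control forskolin libraries 2 and 3, or NFIA forskolin libraries 1 and 3 (-0.55 to -0.70, adjusted p 0.053 to 0.11), with no expression filter (adjusted p 0.071), under quantile normalization (-0.56, adjusted p 0.05) and with only the groups compared (adjusted p 0.054).

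Genes of pathways that act around the chemokines are given by lists made for this purpose, with earlier results of these data known. Of 11 tested interferon-response genes, 9 were higher in NFIA cells at day 0 (beside 12.1% of all genes tested) and 0 lower (beside 9.07%). Examples were Ifit1 at 22.2 against 2.50 FPKM (log2 2.73 ± 0.10, adjusted p = 4.4e-11), Ifit3 at 8.97 against 0.717 FPKM (2.54 ± 0.08, adjusted p = 1e-11) and Isg15, a ubiquitin-like protein, at 31.3 against 5.81 FPKM (2.28 ± 0.24, adjusted p = 4.9e-06). At day 7, 1 was higher (beside 26.1%) and 6 were lower (beside 29.4%) in NFIA cells, among the latter Isg15 (-1.69 ± 0.24, adjusted p = 2.7e-05) and Ifit2 (-2.07 ± 0.12, adjusted p = 1.3e-09). The median log2 difference of the 11 was 0.60 at day 0 and -0.45 at day 7, against 0.02 and -0.03 over all genes. Of 13 tested NF-kB targets, 0 were higher and 3 lower at day 0, and 2 were higher and 9 lower at day 7, beside the same shares of all genes. Their median was 0.10 at day 0 and -0.68 at day 7, against 0.02 and -0.03 over all genes. Nfkbia, the inhibitor that NF-kB induces, was at 56.2 against 15.0 FPKM at day 7 (1.83 ± 0.27, adjusted p = 3.7e-05), and Ier3, an early response gene, at 9.29 against 77.8 FPKM (-2.94 ± 0.23, adjusted p = 3.7e-08).

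With forskolin, 2 of the 13 NF-kB targets rose in control cells (beside 1.92% of all genes) and 5 in NFIA cells (beside 15.7%), and 0 fell (beside 2.06% and 16.9%). Their median log2 change was 0.06 and 0.16, against -0.01 and -0.02 over all genes. Bcl3 rose in both (log2 1.25 ± 0.25, adjusted p = 0.0075, and 1.17 ± 0.25, adjusted p = 0.0019), and Ier3 rose from 9.29 to 91.9 FPKM in NFIA cells (3.16 ± 0.23, adjusted p = 9e-08). Of 10 tested inflammatory cytokines, 1 rose and 1 fell in control cells, and 3 rose and 1 fell in NFIA cells, beside the same shares, with medians of 0.04 and 0.10. Il6 rose from 0.340 to 2.24 FPKM in control cells (1.27 ± 0.11, adjusted p = 5.2e-06) and from 0.220 to 3.15 FPKM in NFIA cells (1.77 ± 0.11, adjusted p = 9.1e-09). Il33, an alarmin, rose from 1.72 to 8.15 FPKM in NFIA cells (1.77 ± 0.14, adjusted p = 1.5e-07). Of 4 tested proteases that can cut or shed chemokines, 0 were higher (beside 26.1% of all genes) and 3 lower (beside 29.4%) in NFIA cells at day 7, with Mmp2 at 16.8 against 97.3 FPKM (-2.47 ± 0.14, adjusted p = 7.5e-10) and Mmp14 at 53.8 against 154 FPKM (-1.51 ± 0.10, adjusted p = 4.8e-09).

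Marker genes of cell types differed between NFIA and control cells alongside the chemokine genes. At day 0, 6 of 7 tested fibroblast and progenitor markers were higher in NFIA cells (beside 12.1% of all genes), with sums over 8 genes of 1337 to 1404 against 677 to 766 FPKM. Of 8 skeletal muscle markers, 5 were lower (beside 9.07%) and 1 higher at day 0, with sums of 22.04 to 25.8 against 33.0 to 38.1 FPKM. At day 7 the fibroblast and progenitor markers summed to 790 to 929 FPKM in NFIA and 2684 to 2827 FPKM in control cells, with 3 of the 7 higher and 4 lower. The summed day 7 FPKM of the 8 skeletal muscle markers was 27993 to 28985 in control and 3043 to 4204 in NFIA cells, and that of 8 adipocyte markers 86.7 to 88.6 and 23249 to 25519. That of 8 neutrophil markers was 0.18 to 0.49 FPKM in control and 153 to 197 FPKM in NFIA cells, nearly all of it S100a8 (148, 189 and 179 FPKM), while S100a9 and Ly6g were listed at 0 in those NFIA libraries. The macrophage and monocyte markers summed to 6.37 to 7.03 FPKM in control and 13.1 to 16.6 FPKM in NFIA cells, of which Cd68 gave 11.1, 14.0 and 12.5 FPKM in NFIA cells. The defining leukocyte marker Ptprc was at 0.01 FPKM or 0 and the macrophage marker Emr1 at 0.03 FPKM or 0 in all 18 cell libraries. The part of the muscle, adipocyte and fibroblast states in the chemokine differences was not tested.

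In brown adipose tissue, 0 of the 11 chemokine genes tested were called between NFIA-KO and wild-type libraries. The count was 0 by limma (0 also at an unadjusted p under 0.05), beside 7.14% of all 13618 genes tested (3.59% higher, 3.55% lower). That reference share rests on single libraries: the 973 genes called in all fell to 19 without wild-type library 1, 53 without wild-type library 3, 109 without NFIA-KO library 2, 148 without NFIA-KO library 1 and 541 without NFIA-KO library 3, and were 1361 without wild-type library 2. The median log2 difference of the 11 was 0.17 against -0.02 over all genes. In bulk tissue, fewer cells of a type and less RNA per cell cannot be told apart. Ccl9 had the highest mean, in the wild-type group through library 2 alone, at 13.1, 34.05 and 12.8 FPKM in wild-type and 38.6, 22.8 and 50.4 FPKM in NFIA-KO libraries, which overlapped through wild-type library 2 (0.94 ± 0.43, adjusted p = 0.2). Without that library the difference was 1.39 (adjusted p = 0.046), the single chemokine call in the tissue under any alternative run. Cxcl12 was at 24.6, 14.2 and 20.1 against 27.6, 13.4 and 19.7 FPKM, a complete overlap, and was above Ccl9 in wild-type libraries 1 and 3 (0.02 ± 0.29, adjusted p = 0.97). Ccl6 was at 11.1, 6.83 and 7.87 against 33.8, 12.1 and 7.03 FPKM (0.70 ± 0.50, adjusted p = 0.4), with NFIA-KO library 1 alone far above the rest.

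Some tissue chemokines were scarce or absent in the cells. Ccl12, listed at 0 in every cell library, was at 2.61, 1.76 and 1.34 FPKM in wild-type and 1.5, 2.37 and 2.95 FPKM in NFIA-KO tissue (log2 0.17 ± 0.23, adjusted p = 0.66). Ccl27a, the skin ligand of Ccr10, was at 4.74, 5.44 and 2.82 against 2.86, 5.65 and 8.09 FPKM (0.24 ± 0.34, adjusted p = 0.68), but its table locus overlaps 6 other genes. The groups overlapped for both. Ccl11 was at 5.04, 4.47 and 4.27 against 5.97, 4.16 and 4.55 FPKM (0.07 ± 0.16, adjusted p = 0.81). Ccl2 was at 2.97, 0.38 and 0.89 against 1.22, 1.31 and 2.77 FPKM (0.30 ± 0.41, adjusted p = 0.66), and Ccl7 at 3.06, 0.69 and 0.49 against 1.28, 0.88 and 4.06 FPKM (0.36 ± 0.49, adjusted p = 0.66). For these monocyte attractants 1 library of each group, wild-type 1 and NFIA-KO 3, was above the others. Cxcl1 and Cxcl5, prominent in the cells, were at most 0.53 and 0.04 FPKM in the tissue.

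Cxcl9, Ccl5 and Cxcl13 did not pass the tissue filter and were singled out after their values were seen, as the chemokine genes whose tissue groups did not overlap. The share of all genes whose tissue groups do not overlap was not counted, so no effect is read from these 3. Cxcl9, induced by interferon gamma, was at 1.57, 1.87 and 0.78 FPKM in wild-type and 0.32, 0.27 and 0.60 FPKM in NFIA-KO libraries. Ccl5 was at 0.38, 0.49 and 0.85 against 0.13, 0.10 and 0.33 FPKM. Both were lower in all 3 NFIA-KO libraries. Cxcl13 went the other way, at 0.01, 0.13 and 0.05 against 0.56, 0.56 and 0.21 FPKM, and Ccl5 and Cxcl13 stayed under 1 FPKM in every tissue library. With no expression filter the count of chemokine genes called in the tissue remained 0. Outside the naming rule, the platelet chemokine Pf4 was at 43.7, 24.8 and 43.4 against 99.95, 46.95 and 38.6 FPKM. Ppbp, also of platelets, was at 1.74, 0.85 and 2.11 against 4.35, 5.47 and 4.56 FPKM, without overlap (log2 1.20 ± 0.22, adjusted p = 0.032). Ppbp passed the filter only through the NFIA-KO libraries, where it was high, so its call adds nothing to these values. Of 3 tested chemokine genes outside the rule, 1 was called higher, beside 3.59% of all genes. Of 15 tested interferon-response genes in the tissue, 0 were called.

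**Figure D5:**
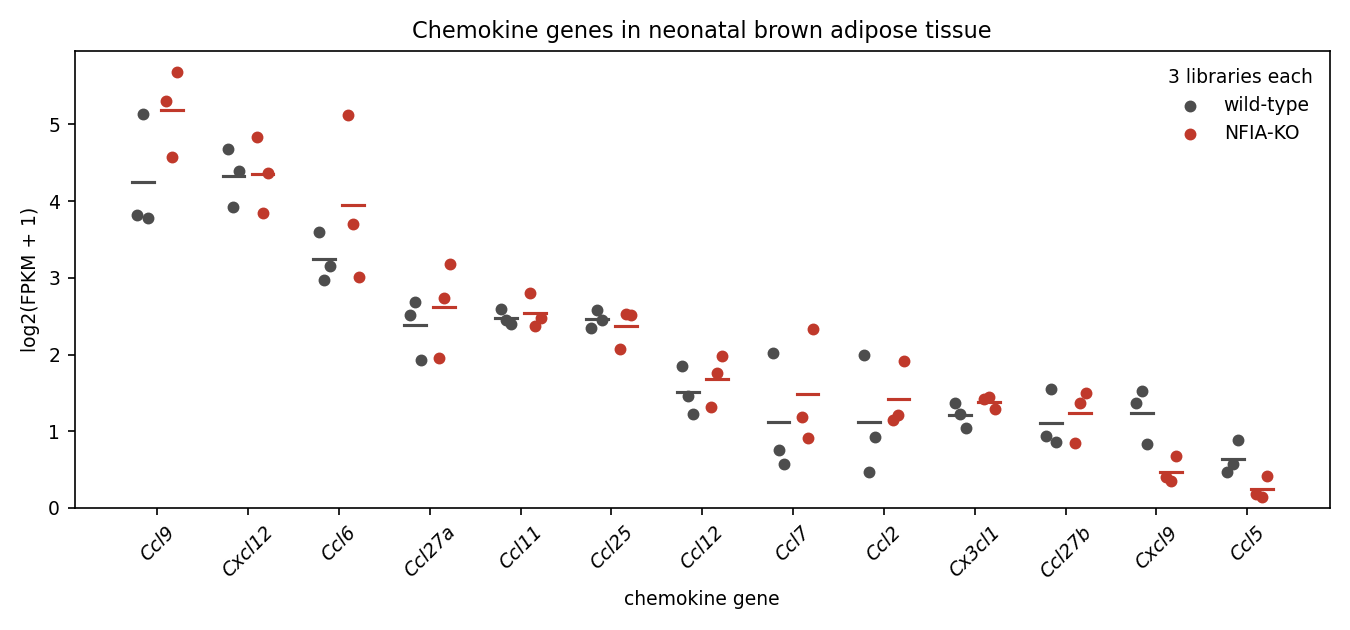
Log2(FPKM + 1) (y axis) of the 11 tested chemokine genes and of Cxcl9 and Ccl5 in wild-type (grey) and NFIA-KO (red) neonatal brown adipose tissue; points are libraries and lines means of 3 libraries. The 2 groups overlap for the 11 tested genes and are apart for Cxcl9 and Ccl5, which did not pass the filter and were picked after their values were seen. Cxcl13, also apart but higher in the NFIA-KO libraries, is not drawn.

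Markers of other cell types in the tissue libraries are given beside these values. The 9 macrophage and monocyte markers summed to 53.2 to 78.6 FPKM in wild-type and 63.1 to 130 FPKM in NFIA-KO tissue, and 0 of the 9 were called; NFIA-KO library 1, the highest for Ccl6, was also the highest for Csf1r (11.04 FPKM) and C1qa. Of 5 tested mast cell markers, 4 were higher in NFIA-KO libraries (beside 3.59% of all genes), with summed levels of 43.8 to 63.3 against 117 to 287 FPKM. Of 8 skeletal muscle markers, 7 were higher (beside the same 3.59%), with sums of 68.5 to 166 against 349 to 2259 FPKM. The part of these cell types in the chemokine values was not tested. Of 8 adipocyte markers, 0 were higher and 1 was lower (beside 3.55%), the heat-producing uncoupling protein gene Ucp1, and their sums overlapped, at 9332 to 35620 against 19544 to 24114 FPKM.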

How the data were processed

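The values are FPKM per gene as deposited, 1 table per library; per the submitters' processing notes the authors used TopHat, Cufflinks and the mm9 build, with versions and annotation not given in the sources used here, and per the labels' protocols polyadenylated RNA was made into stranded libraries. Whether counting used strand is not stated. Rows of 1 symbol at overlapping loci were summed. The chemokine members and the gene lists were chosen with earlier results of these data known. Each test used limma (3.58.1, R 4.3.3) with a variance trend on log2(FPKM + 1): 1 fit of the 18 cell libraries with 6 group means, and 1 fit of the 6 tissue libraries. Genes needed 1 FPKM in at least 3 libraries of a fit, and p-values were adjusted by Benjamini-Hochberg over all genes tested, with a threshold of 0.05. The genes named are all chemokine genes that passed this filter or stood at 1 FPKM or more in a library. The script was tested on simulated data. Alternatives were a pseudocount of 0.1, no filter, 2 other scalings, no trend, a replicate block, fewer groups, only the cell libraries with a number in their titles (2 and 3; an unnumbered one is called 1) and leaving out each library. Header date as a term and protein-coding genes only were added after seeing the data.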

Additional observations from a re-analysis of the deposited data

Results flagged for a closer look

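For 10 chemokine genes the change from day 0 to day 7 differed between NFIA and control cells, tested by an interaction term in the limma fit of the 18 cell libraries (log2 scale, NFIA minus control). The difference was -5.54 for Ccl5, -1.97 for Cxcl10, -1.12 for Cxcl13, -1.02 for Cx3cl1, -0.87 for Cxcl12, -0.85 for Ccl11, -0.69 for Ccl8, -0.67 for Cxcl5, 0.65 for Ccl25 and 1.69 for Ccl2. Ccl8 was listed at 0 in NFIA cells on both days, so its value is the change of the control cells alone, and Cxcl13 was listed at 0 in NFIA cells at day 0. Cxcl10 passed the expression filter only through NFIA cells at day 0, where it was high, and Ccl11 only through control libraries, where it was high. For 4 genes the response to forskolin differed between NFIA and control cells by the same kind of term, at -0.65 for Cx3cl1, 0.78 for Cxcl1, 1.12 for Ccl7 and 2.36 for Cxcl14.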

How the results depend on the processing

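Of the 78 chemokine calls in the cells, 60 were kept under every alternative that gave a value and 18 were lost under at least 1. Over 1401 alternative values of 83 results for single genes, 1320 kept their direction and side of the threshold, 77 lost the call, 1 gained it (Ccl9 in the tissue) and 3 reversed. The reversed values are the uncalled Ccl9 difference between NFIA and control cells with forskolin, main value -0.44, which was 0.59 without control forskolin library 3, 0.27 without NFIA forskolin library 1 and 0.28 without NFIA forskolin library 2; over the libraries left out it ran from -1.87 to 0.59. The count of forskolin responses that differed between NFIA and control cells was 4, was 1 with no expression filter, and ran from 1 to 4 over the libraries left out. The tissue count of 0 ran from 0 to 1, with the 1 call made without wild-type library 2. Quantile normalization moved the median of all genes for control cells from day 0 to day 7 from 0.02 to -0.11. Cxcl13's interaction of NFIA and day was -1.25 (adjusted p 0.12) and Ccl11's -0.56 (adjusted p 0.31) with a pseudocount of 0.1. The labels do not tie equal replicate numbers to each other. Same-numbered cell libraries tended to deviate together, most clearly for number 1, whose 6 libraries share the earlier header date. Their deviations were correlated at 0.185 to 0.444 for number 1, 0.027 to 0.303 for number 2 and -0.036 to 0.277 for number 3. The medians were 0.331, 0.119 and 0.131, against -0.143 for different numbers. Same-numbered tissue libraries were at -0.009, 0.111 and 0.143. The main fit has no term for this. At day 0 it called 3036 of all genes tested between NFIA and control cells. That count was 5159 with the replicate block and 5303 with header date as a term, so some results not called depend on this choice. With the replicate block the chemokine calls were 10 at day 0, 12 at day 7 and 12 with forskolin between NFIA and control cells, 13 and 12 over time in control and NFIA cells, 3 and 9 with forskolin, 12 and 6 for the interactions with day and forskolin, and 0 in the tissue. The block lost no call and gained 11: between NFIA and control cells Cxcl16 at day 0, Ccl2 and Cxcl10 at day 7 and Ccl2 and Cxcl5 with forskolin, over time in control cells Cx3cl1, with forskolin in NFIA cells Ccl5, in the interaction with day Ccl7 and Cxcl1, and in that with forskolin Ccl2 and Cxcl5. Without read totals the precision of low FPKM values cannot be set, and 3 libraries a group limit all tests.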
